A study of Mus musculus with 20 samples.

Results

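The comparison of mice fed with 5% resistant potato starch (RPS) against mice fed with 2% RPS used 10 of the 20 distal colon (DC) libraries, 5 mice on each diet. Each mouse was placed by its description label, in which GEO holds the animal code and the RPS level. The 5% RPS group held mice RS10_717, RS10_718, RS10_719, RS10_721 and RS10_724, and the 2% RPS group held mice RS10_709, RS10_712, RS10_715, RS10_716 and RS10_748. All were C57BL/6 mice that took the Total Western Diet (TWD), a diet made to resemble what people in the United States eat, from weaning for 6 weeks. The series record gives the age at the start as 3 weeks, and the methods give weaning at 3 to 4 weeks. The TWD then carried 5% or 2% RPS, called raw potato starch in the labels, for 3 more weeks, so by design the groups differed in the amount of starch and shared the background diet. The question was which DC transcripts separate these neighbouring doses. Polyadenylated RNA from a piece of the whole DC wall was sequenced, 1 library per mouse. In such a piece a smaller number of cells of a type and less RNA per cell cannot be told apart. Levels are given as CPM, counts per megacount after library scaling, and a fold change is that of 5% over 2% RPS. The labels do not say whether mice shared a cage. The p-values of genes come from main fits over the mice of all 4 diets and measure the spread between those mice only.

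Potato starch that escapes digestion is fermented by bacteria in the cecum and colon, and the short-chain fatty acids that form there are taken up by the colonocytes and serve them as fuel. The DC absorbs sodium through apical exchangers, which swap sodium for protons, and through the amiloride-sensitive epithelial sodium channel. Its surface cells also make mucus, antimicrobial proteins and reactive oxygen, and cytokines such as IL-22 act on them through STAT3, a transcription factor whose targets include its own inhibitor, Socs3.

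Total counts lay between 22.3 and 30.4 megacounts on 5% RPS and between 24.5 and 31.1 megacounts on 2% RPS. The means differed by 0.410 megacounts (exact two-sided permutation p = 0.825). The library of mouse RS10_721 stood apart because it held exocrine pancreas transcripts. All 29 acinar genes in the table summed to 9935 CPM in RS10_721 and to 2440 to 3347 CPM in the other 9 mice. Of these genes, 24 had a count in RS10_721 and under 10 CPM in each of the other 9. Those 24 summed to 6591 CPM in RS10_721, or 0.639% of its counts. By that choice their sums elsewhere were low, 12.7 to 17.0 CPM in the other 4 mice on 5% RPS and 9.49 to 28.0 CPM on 2% RPS. Pancreatic lipase, Pnlip, measured 1110 CPM in RS10_721 and at most 2.66 CPM in the other 9 mice. The count filter kept 16 of the 29 acinar genes for testing. Of these 16, 13 were higher on 5% RPS at an unadjusted p under 0.05 (3.68% of all genes). Without RS10_721 it was 1, Bhlha15 (2.65% of all genes). RS10_721 also had the lowest summed level of 15 smooth muscle genes, 7763 CPM against 10610 to 17160 CPM in the other 9, and of 9 posterior Hox genes in the table, 592 CPM against 733 to 931 CPM. Its sum for 14 colon epithelium genes was the highest, 26950 CPM against 19370 to 23570 CPM, as were those for squamous epithelium, 536 CPM against 97.6 to 269 CPM, and for adipocytes, 427 CPM against 81.6 to 306 CPM. Results are therefore given with and without this mouse. The treatment label disagrees with the description for RS10_717, which it places at 2%, and for RS10_748, which it places at 10%. It moves RS10_725 of the 10% RPS group to 5%.

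The step from 2% to 5% RPS moved no single gene past the threshold of the main test. Of 17893 genes tested with edgeR's quasi-likelihood test, 0 (0.0%) had an adjusted p of at most 0.05 with a fold change of at least 1.5, and the smallest adjusted p was 0.353. At an unadjusted p under 0.05 there were 1168 genes, of which 659 (3.68% of those tested) were higher at 5% RPS and 509 (2.84%) were lower. The median log2 fold change of all tested genes was -0.0051. In 86 genes (0.481%) all 5 mice on 5% RPS lay above all 5 on 2% RPS, and in 85 genes (0.475%) all lay below. DESeq2, on 25901 genes, called 1 gene (0.00386%), Bhlha15, and had 1347 genes at an unadjusted p under 0.05. Without RS10_721, edgeR again called 0 genes, with 479 (2.65% of 18096) at an unadjusted p under 0.05 and higher and 370 (2.04%) lower, and DESeq2 called 2 genes, Bhlha15 and Rdh9. Of the 659 genes higher with all mice, 373 (56.6%) were also at an unadjusted p under 0.05 without RS10_721, and 652 had the same sign. Below, genes counted as higher or lower in a list are those with an unadjusted edgeR p under 0.05, and the p-values printed for genes are adjusted ones, from edgeR unless DESeq2 is named.

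The gene that DESeq2 called, Bhlha15 (ENSMUSG00000052271, GRCm39 chromosome 5, 144127086 to 144131259, plus strand, protein coding), encodes the transcription factor MIST1, which builds up the secretory apparatus of acinar, plasma and other secretory cells. At 2% RPS it measured 2.13, 1.95, 2.73, 2.58 and 2.33 CPM, in the order RS10_709, RS10_712, RS10_715, RS10_716 and RS10_748. At 5% RPS it measured 6.77, 3.64, 5.45, 10.1 and 3.71 CPM, in the order RS10_717, RS10_718, RS10_719, RS10_721 and RS10_724, and both orders are kept throughout. The groups did not overlap. The log2 fold change was 1.34 ± 0.25 (SE, edgeR adjusted p = 0.353, DESeq2 adjusted p = 0.0028). Bhlha15 is itself an acinar gene and was highest in RS10_721, the mouse with 6591 CPM over the 24 chosen acinar genes. The part of pancreatic tissue in the Bhlha15 difference was not tested. Without RS10_721 its log2 fold change was 1.06 and its DESeq2 adjusted p 0.0332. Under the treatment label the log2 fold change of Bhlha15 was 0.69. DESeq2 called it in 9 of the 10 analyses that left out a mouse. The exception was the omission of RS10_717, with an adjusted p of 0.0593. Bhlha15 averaged 2.60 ± 0.629 CPM on 0% RPS and 3.03 ± 0.719 CPM at 10% RPS (SD, n = 5), so the mice on 5% RPS had the highest mean of the 4 diets.

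Rdh9, a retinol dehydrogenase of the retinoid pathway (ENSMUSG00000056148, chromosome 10, 127612255 to 127628566, plus strand, protein coding) was separate too. It measured 2.33, 2.98, 1.70, 1.5 and 2.82 CPM on 2% RPS and 6.15, 5.04, 8.46, 3.41 and 3.13 CPM at 5% RPS. No 5% mouse lay within the 2% range, although RS10_724 was close to the highest 2% mouse. The log2 fold change was 1.21 ± 0.27 (SE, adjusted p = 0.706, DESeq2 adjusted p = 0.0512). Without RS10_721 it was 1.33, and DESeq2 then called Rdh9 as well (adjusted p = 0.0332), as it did without RS10_712, RS10_724 or RS10_748. At 10% RPS the mean was 6.45 ± 1.41 CPM, close to the 5.24 ± 2.18 CPM at 5% RPS (SD, n = 5). Its relatives were less separated. Rdh16, another retinol dehydrogenase, had a log2 fold change of 0.41 (adjusted p = 0.757) and Dhrs9, a short-chain dehydrogenase that oxidises retinol, one of 1.91 (adjusted p = 0.706). Dhrs9 measured 22.1 CPM in RS10_721 and 2.02 CPM in RS10_718, and RS10_718 and RS10_724 (2.99 CPM) lay within the 2% range of 1.89 to 3.18 CPM. Without RS10_721 the log2 fold change of Dhrs9 was 1.22. Over the 20 tested retinoid genes, 3 were higher (3.68% of all genes), 1 was lower (2.84%) and the median log2 fold change was -0.07.

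Other genes also had groups that did not overlap. Nrarp, a target and feedback inhibitor of Notch signalling, measured 2.94, 1.99, 1.95, 2.11 and 3.11 CPM on 2% RPS and 5.22, 4.47, 4.09, 4.28 and 4.60 CPM at 5% RPS. Here RS10_721 lay among the other 4 mice of its diet. The log2 fold change of Nrarp was 0.90 ± 0.22 (SE, adjusted p = 0.706), and its mean at 10% RPS was 4.27 ± 1.88 CPM (SD, n = 5). Homer2, a postsynaptic scaffold protein that is also made in epithelia, measured 7.42 to 11.2 CPM on 2% RPS and 11.9 to 28.1 CPM at 5% RPS (log2 fold change 0.90, and 0.62 without RS10_721). Foxo6, a forkhead factor, had a log2 fold change of 0.90 and Art2a, an ADP-ribosyltransferase, one of 0.74, both at most 2.47 CPM in every mouse. Il31ra, the receptor chain for interleukin-31, was separate too, at 5.66 to 9.44 CPM against 9.62 to 47.9 CPM. In that gene RS10_724 alone had 47.9 CPM and the other 4 mice on 5% RPS reached 11.6 CPM. Il31ra had a log2 fold change of 1.43 with all mice and of 0.69 without RS10_724.

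The 8 lowest log2 fold changes among separated genes of at least 1 CPM were of mixed kinds. Cyp2c55, a cytochrome P450 that oxidises fatty acids and drugs in the colon, measured 57.9, 38, 54.0, 66.6 and 46.7 CPM on 2% RPS and 36.7, 31.2, 17.3, 33.4 and 32.4 CPM at 5% RPS. Its log2 fold change was -0.80 ± 0.28 (SE, adjusted p = 0.706). The mean at 10% RPS was 51.5 ± 24.2 CPM (SD, n = 5). Myh2, a skeletal muscle myosin, measured 1.52 to 3.04 CPM on 2% RPS and 0.938 to 1.22 CPM at 5% RPS (log2 fold change -1.03). The summed level of 13 skeletal muscle genes was 30.9 to 62.7 CPM and 22.8 to 42.2 CPM, and its part in the Myh2 difference was not tested. Ighv5-9, an immunoglobulin heavy chain segment, had the lowest log2 fold change, -2.81, with 0.603 to 5.50 CPM on 2% RPS and 0.232 to 0.503 CPM at 5% RPS. Reads of such segments may be shared between copies, so its count is uncertain. The other 5 were Gm43534, Glt8d2, Hoxd8, Gm4876 and Zfp1007, with log2 fold changes of -0.80 to -0.57 and means of 1.26 to 3.15 CPM on 2% RPS.

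**Figure D1:**
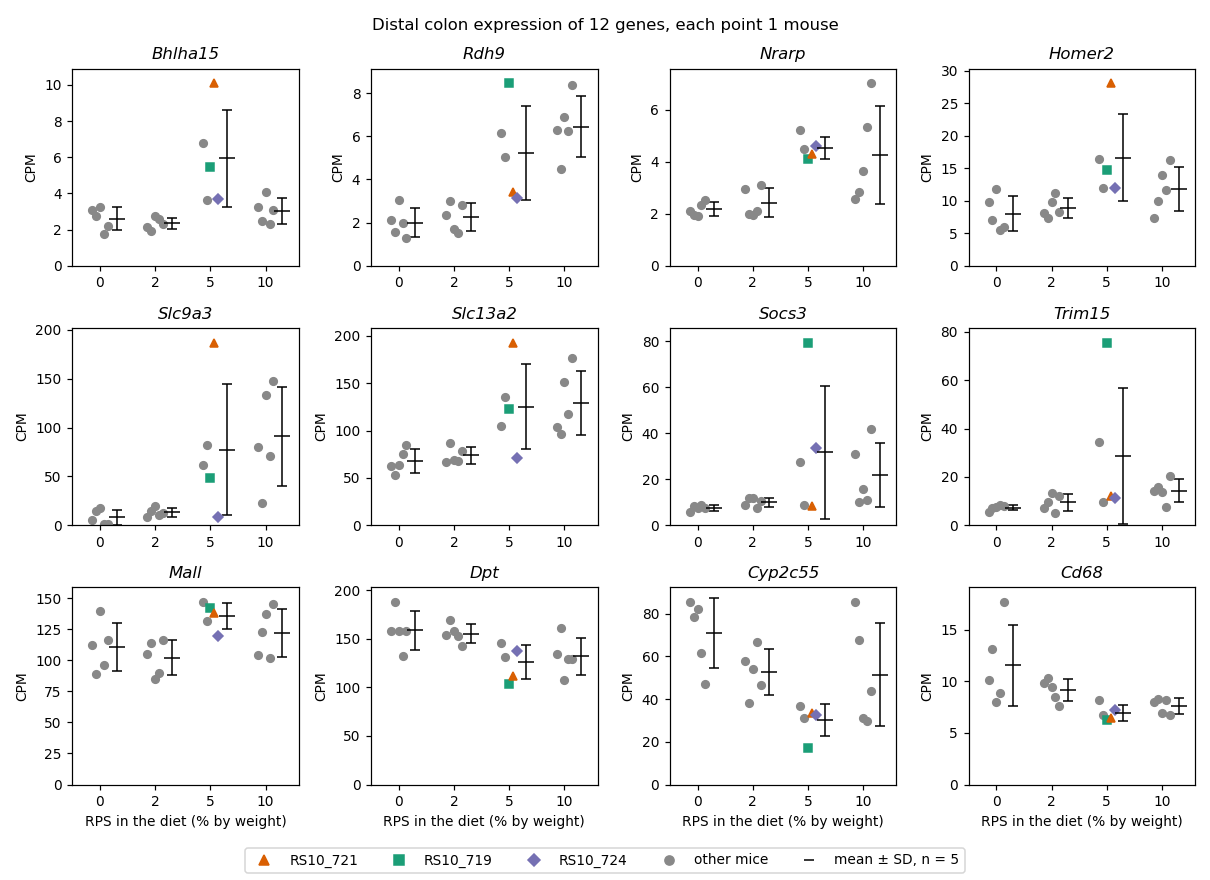
Expression in CPM of 12 genes in the DC at 0, 2, 5 and 10% RPS, each point 1 mouse, with the mean and SD of 5 mice beside the points. RS10_721, RS10_719 and RS10_724 are marked. Bhlha15, Rdh9, Nrarp and Homer2 were separate between 2% and 5% RPS, whereas RS10_724 (8.08 CPM) lay with the lowest 2% mice in Slc9a3 and RS10_719 (79.5 CPM) led Socs3.

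Among ion transport genes, Slc9a3, the apical sodium/proton exchanger NHE3 (ENSMUSG00000036123, chromosome 13, 74269360 to 74317561, plus strand), measured 8.20, 14.8, 20.1, 10.8 and 12.5 CPM at 2% RPS. At 5% RPS it measured 61.1, 81.6, 47.9, 187 and 8.08 CPM. The groups overlapped through RS10_724 alone, which was lower than every 2% mouse. The log2 fold change was 2.54 ± 0.76 (SE, adjusted p = 0.706) and 1.90 without RS10_721. The mean at 10% RPS was 90.9 ± 50.4 CPM and that at 0% RPS was 8.23 ± 7.61 CPM (SD, n = 5). Of the 22 electroneutral transport genes tested, 5 were higher at an unadjusted p under 0.05 (3.68% of all genes), 1 was lower (2.84%) and the median log2 fold change was 0.07. Nherf1, a scaffold that holds NHE3 at the membrane, had a log2 fold change of 0.37 (adjusted p = 0.706), and its relative Nherf2 one of -0.27 (adjusted p = 0.758). Car4, a membrane carbonic anhydrase, had one of 0.26, and the water channels Aqp8 and Aqp4 had 0.36 and 1.23. Aqp4 measured 370 CPM in RS10_721, and its log2 fold change without that mouse was 0.68 (adjusted p = 0.974). Without RS10_721, 2 of the 22 genes were higher (2.65% of all genes) and 2 were lower (2.04%). There were 3 higher without RS10_717 or RS10_719, and 2 higher and 0 lower under the treatment label.

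In the epithelial sodium channel, Scnn1b, its beta chain, measured 28.8, 27.2, 16.4, 27.2 and 29.9 CPM on 2% RPS and 16.8, 19.1, 19.7, 7.30 and 33.9 CPM at 5% RPS. Scnn1g, its gamma chain, measured 21.7 to 38.7 CPM and 1.90 to 27.9 CPM. Both groups overlapped, and RS10_721 was the lowest mouse in both genes. The log2 fold changes were -0.42 ± 0.33 for Scnn1b (SE, adjusted p = 0.829) and -0.82 ± 0.55 for Scnn1g (SE, adjusted p = 0.8). The alpha chain, Scnn1a, had a log2 fold change of 0.25 (adjusted p = 0.746). St14, matriptase, a protease that can activate the channel, was higher in every 5% mouse, with 414, 362, 465, 403 and 343 CPM against 333, 321, 286, 316 and 339 CPM. Its log2 fold change was 0.32 ± 0.09 (SE, adjusted p = 0.706) and 0.31 without RS10_721. Among short-chain fatty acid transport genes, Abcg2, an efflux pump, had one of 0.39 ± 0.11 (SE, adjusted p = 0.706), with 4 of 5 mice on 5% RPS above all 2% mice and RS10_724 within them. Slc16a1, the monocarboxylate transporter that carries butyrate, measured 309 to 345 CPM on 2% RPS and 236 to 316 CPM at 5% RPS (log2 fold change -0.23, adjusted p = 0.706). Of 14 genes of butyrate oxidation and ketogenesis, 0 passed the unadjusted threshold of edgeR (3.68% of all genes higher and 2.84% lower).

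Surface colonocytes are the mature cells at the luminal end of the crypt. Of 22 of their genes tested, 10 were higher at an unadjusted p under 0.05 and 0 were lower, against 3.68% and 2.84% of all genes. The median log2 fold change was 0.29 against -0.0051 over all genes, and 21 of 22 were positive. Without RS10_721, 5 were higher and the median was 0.23. Without RS10_724, 12 were higher and the median was 0.34. There were also 5 without RS10_709 and 6 without RS10_717 or RS10_719. Under the treatment label 4 were higher and the median was 0.26. Slc13a2, a citrate and succinate carrier, measured 66.4, 86.5, 68.5, 68.3 and 78.7 CPM on 2% RPS and 105, 135, 123, 193 and 70.7 CPM at 5% RPS (log2 fold change 0.77, adjusted p = 0.706). Krt20, the keratin of mature colonocytes, measured 493 to 714 CPM and 977, 774, 865, 1180 and 608 CPM. In both genes RS10_724 lay within the 2% range and the other 4 mice above it. Mall, a membrane raft protein, was the 1 member whose groups did not overlap, at 84.7 to 116 CPM and 120 to 147 CPM (log2 fold change 0.41). Dpep1, a dipeptidase, and Tmigd1, an adhesion protein, had log2 fold changes of 1.20 and 1.5 with their highest values, 119 and 5.97 CPM, in RS10_721, and of 0.58 and 1.03 without it. Cdhr2, which links microvilli, had 0.18, Plac8 had 0.31 and Ptk6, a kinase of differentiating epithelium, had 1.07.

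Of 14 colon epithelium genes, all 14 had a positive log2 fold change, with a median of 0.16. At an unadjusted p under 0.05, 4 were higher (3.68% of all genes). They were Vil1, villin (0.24), Cdx2, an intestinal transcription factor (0.94), Car4 and Krt20. Car4 and Krt20 also count among the higher surface colonocyte genes, so the lists are not separate results. Cdx2 measured 84.6 CPM in RS10_721 and 16.7 to 33.1 CPM in the other mice on 5% RPS, and without that mouse none of the 14 was under the threshold. None was without RS10_709 or RS10_717 either, and 1 was without RS10_712 or under the treatment label and 2 without RS10_716. All 25 cell cycle genes also had positive values, with a median of 0.19. Only Ccne1, cyclin E1, was under the threshold (log2 fold change 0.61, adjusted p = 0.757), where 3.68% of all genes were higher. Under the treatment label the cell cycle median was 0.06. With a mouse left out it was 0.09 (without RS10_712) to 0.31 (without RS10_716). Of 17 stem cell and Wnt target genes, 0 were higher (3.68% of all genes) and 1 was lower (2.84%), Ephb3, a crypt receptor kinase (-0.24). Of 24 mucin and goblet cell genes, 0 passed in either direction (3.68% of all genes higher and 2.84% lower). Clca1, a goblet cell protease, measured 1240 to 2540 CPM on 2% RPS and 1230 to 3260 CPM at 5% RPS. The membrane mucin Muc3a measured 80.6 to 95.5 CPM and 86.2 to 193 CPM, with its highest value in RS10_721. Tff3, a trefoil peptide of mucus, had a log2 fold change of -0.26 (adjusted p = 0.76).

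**Figure D2:**
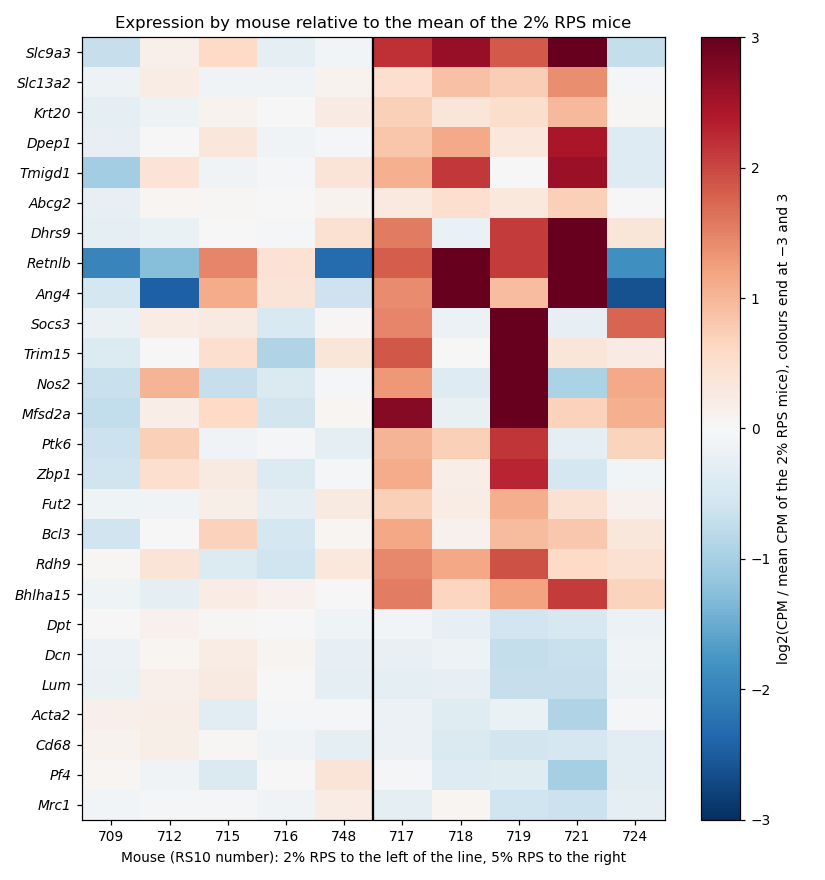
Each row is a gene and each column a mouse, and the colour is the log2 of its CPM over the mean CPM of the 2% RPS mice. The colour scale is capped at both ends. Slc9a3 and Dpep1 were darkest in RS10_721, and Socs3, Trim15 and Nos2 in RS10_719. In Retnlb and Ang4 both RS10_721 and RS10_718 reached the end colour.

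The higher values on 5% RPS were not led by the same mice in all genes. Of the 659 genes higher at an unadjusted p under 0.05, RS10_721 had the highest level of the 10 mice in 269 (40.8%), RS10_719 in 218 (33.1%), RS10_717 in 102 (15.5%), RS10_718 in 44 (6.68%) and RS10_724 in 25 (3.79%). RS10_724 exceeded all 5 mice on 2% RPS in 253 of these genes (38.4%), and RS10_719 did so in 540 (81.9%). Among the 509 genes that were lower, RS10_724 was below all 2% mice in 188 (36.9%) and RS10_721 in 413 (81.1%). These shares describe genes that the comparison itself chose. Without RS10_724, 27 genes passed by DESeq2 (25 higher, 2 lower), including Slc9a3, Slc13a2, Tmigd1, Trim15, Retnlb and Ang4, whereas edgeR still called 0, with 1608 genes at an unadjusted p under 0.05. The total count of RS10_724, 22.3 megacounts, was the lowest of the 10, and its part in this result was not tested.

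**Figure D3:**
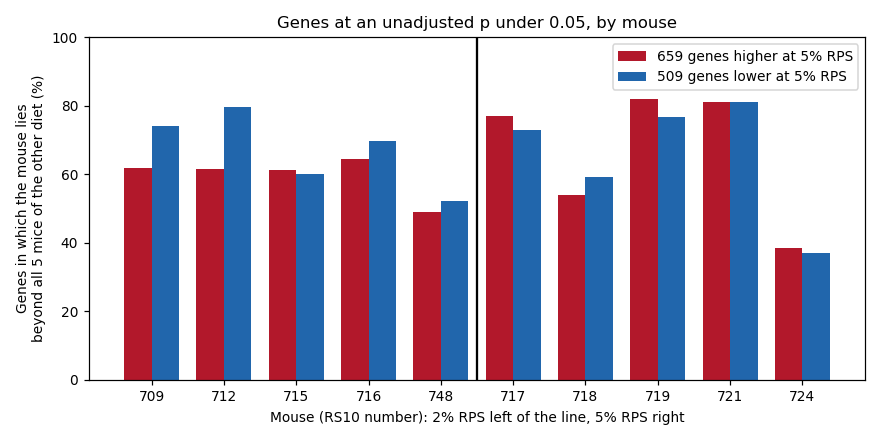
For each mouse, the bars give the percent of genes at an unadjusted p under 0.05 in which it lay beyond all 5 mice of the other diet, in the direction of the difference. RS10_724 had the lowest bars of the 5% RPS mice, 38.4% and 36.9%, and RS10_748 the lowest of the 2% RPS mice.

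Of 28 STAT3 pathway genes tested, 6 were higher at an unadjusted p under 0.05 and 0 were lower, against 3.68% and 2.84% of all genes, with a median log2 fold change of 0.10, and RS10_719 had the highest level in 5 of the 6. Socs3, the feedback inhibitor of STAT3 signalling (ENSMUSG00000053113, chromosome 11, 117856905 to 117860898, minus strand), measured 8.73, 11.7, 12, 7.33 and 10.3 CPM at 2% RPS. At 5% RPS it measured 27.7, 8.91, 79.5, 8.48 and 33.7 CPM. Of the 5 mice, 3 were above the 2% range and RS10_718 and RS10_721 were inside it. The log2 fold change was 1.66 ± 0.53 (SE, adjusted p = 0.706) and 1.90 without RS10_721. Stat3 itself had a log2 fold change of 0.22, the kinase Jak1 of 0.11, the NF-kappaB partner Bcl3 of 0.73 and Fut2, which fucosylates the epithelial surface, of 0.56. Il22 and Il6, cytokines that act above this pathway, were barely detected. Il22 had 1 count summed over the mice of either diet, and Il6 had 12 counts on 2% RPS and 6 on 5% RPS. Socs2, a related inhibitor on the list, had -0.27 (adjusted p = 0.763). Without RS10_721 the list again held 6 higher genes, and without RS10_719 it held 3.

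Some genes outside the list were also highest in RS10_719. Trim15, a RING-type ubiquitin ligase, measured 7.12, 9.51, 13.5, 5.08 and 12.1 CPM on 2% RPS and 34.6, 9.61, 75.6, 12.1 and 11.2 CPM at 5% RPS (log2 fold change 1.60, adjusted p = 0.706). Nos2, the inducible nitric oxide synthase, measured 1.03 to 3.38 CPM and 4.06, 1.26, 22.9, 0.862 and 3.66 CPM (1.97, adjusted p = 0.712). Mfsd2a, a lysolipid carrier, measured 0.724 to 1.81 CPM and 7.93, 1.03, 17.4, 1.94 and 2.50 CPM (2.36, adjusted p = 0.706). In all 3 genes RS10_719 was the highest mouse and RS10_717 the next. Hspa12a and Gpr160, an orphan receptor, had log2 fold changes of 0.46 and 0.54 and were likewise highest in RS10_719. RS10_717, whose labels disagree, is part of each of these results, and without the 3 mice whose labels disagree the log2 fold change was 1.71 for Socs3 and 1.62 for Trim15. Under the treatment label it was 1.26 for Socs3, 0.81 for Trim15 and 1.11 for Mfsd2a. Without RS10_719 it was 0.97 for Socs3, 0.83 for Trim15, 0.55 for Nos2 and 1.47 for Mfsd2a.

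The windows of 250 bases upstream of the start of Socs3 and Trim15 were picked for display because they hold a STAT-type element, TTCNNNGAA. This motif reads the same on both strands. Both genes were highest in RS10_719. The window of Eif2ak2, also highest in RS10_719, held a match too and is not shown. Those of Stat3, Jak1, Oas3 and Parp12, likewise highest in RS10_719, held 0 matches, as did that of Bcl3. All these windows come from RefSeq on build GRCm38.p6 and not from these mice. Capitals mark the match to this motif, the only one searched for.
Socs3, chr11:117969367-117969616, minus strand: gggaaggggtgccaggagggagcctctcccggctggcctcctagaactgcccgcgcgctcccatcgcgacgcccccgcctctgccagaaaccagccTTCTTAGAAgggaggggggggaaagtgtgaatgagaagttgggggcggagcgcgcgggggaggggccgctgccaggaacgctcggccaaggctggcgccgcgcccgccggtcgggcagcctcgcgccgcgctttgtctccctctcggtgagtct
Trim15, chr17:36867211-36867460, minus strand: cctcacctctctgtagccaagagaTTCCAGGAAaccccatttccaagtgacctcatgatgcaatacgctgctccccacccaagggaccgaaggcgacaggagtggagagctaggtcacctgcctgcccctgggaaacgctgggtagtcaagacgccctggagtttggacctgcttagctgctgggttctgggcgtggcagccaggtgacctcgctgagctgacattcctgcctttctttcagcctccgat
The match begins 154 bases before the start in Socs3 and 226 bases before it in Trim15. Of 16406 such windows of tested genes, 977 (5.96%) hold the motif, as do 10 of 52 windows (19.2%) of the interferon-stimulated list and 1 of 25 (4.0%) of the STAT3 list. A match is a description of the letters in this window and not a binding site.

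Of 10 epithelial oxidase genes tested, 4 were higher at an unadjusted p under 0.05 (3.68% of all genes) and 0 were lower (2.84%), with a median log2 fold change of 0.20. Duox2, which makes hydrogen peroxide at the apical membrane, measured 67.1, 110, 103, 90.6 and 83.4 CPM on 2% RPS and 124, 93.5, 183, 147 and 118 CPM at 5% RPS (log2 fold change 0.55, adjusted p = 0.747). Only RS10_718 of the 5% mice lay within the 2% range. Its maturation factors Duoxa2 and Duoxa1 had 0.76 (adjusted p = 0.746) and 0.65 (adjusted p = 0.706). Without RS10_719, 1 of the 10 genes was higher, and without RS10_709 there were 2. Under the treatment label 3 were higher and the median was 0.04.

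Of 54 interferon-stimulated genes tested, 6 were higher and 0 were lower at an unadjusted p under 0.05, where all genes gave 3.68% and 2.84%, and the median log2 fold change was 0.09, with 37 positive. Leaving out a mouse gave 1 to 7 higher genes, with 1 higher and 1 lower without RS10_719 and 2 higher without RS10_709, and medians of -0.03 to 0.13. Oas3, a sensor of double-stranded RNA, measured 1.33 to 2.69 CPM on 2% RPS and 1.92, 2.52, 6.63, 4.28 and 3.04 CPM at 5% RPS (log2 fold change 0.95, adjusted p = 0.747). Mx1, an antiviral GTPase, had 0.63 (adjusted p = 0.757), and 0.39 (adjusted p = 0.974) without RS10_721. Zbp1, which senses nucleic acids, measured 9.05 to 19.6 CPM and 29.7, 15.9, 67.1, 9.60 and 12.9 CPM (0.98, adjusted p = 0.758), and Irf1 138 to 153 CPM and 136 to 200 CPM (0.20, adjusted p = 0.758). In both, RS10_719 was the highest and RS10_717 the next. Parp12 and Eif2ak2, the kinase PKR, had 0.24 and 0.18. Iigp1, an interferon-inducible GTPase, had -0.55 (adjusted p = 0.77).

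Of 14 antimicrobial genes tested, 4 were higher at an unadjusted p under 0.05 (3.68% of all genes), with a median log2 fold change of 0.30. Without RS10_721, 2 were higher (2.65% of all genes) and the median was 0.11. There were also 2 higher without RS10_712, RS10_719 or RS10_748, and under the treatment label. Retnlb, the resistin-like protein of goblet cells, measured 0.0402, 0.0662, 0.443, 0.215 and 0.0324 CPM on 2% RPS and 0.562, 1.92, 0.677, 23.4 and 0.0446 CPM at 5% RPS. Ang4, an antimicrobial angiogenin, measured 0.764, 0.199, 2.36, 1.43 and 0.713 CPM and 2.94, 13.4, 2.06, 98.7 and 0.179 CPM. Retnlb had 1 to 12 counts in the 2% mice and 651 in RS10_721. In both genes RS10_721 was far above the rest, RS10_718 was second and RS10_724 was at the low end of the 2% range or below it. The log2 fold change of Retnlb was 5.05 ± 1.33 (SE, adjusted p = 0.706) and 2.34 (adjusted p = 0.974) without RS10_721. That of Ang4 was 4.43 ± 1.33 (SE, adjusted p = 0.706) and 2.10 (adjusted p = 0.974). Reads of Ang4 may be shared with other angiogenins. Reg3g, a lectin that kills bacteria, and Pla2g2a, a secreted phospholipase, had 1.28 and 1.57 on levels of at most 0.893 and 3.88 CPM. The count filter kept 14 of the 20 antimicrobial genes and left out Reg3b. Reg3b had 1 count summed over the 2% mice and 67 over the 5% mice, with at most 35 in a mouse. DESeq2 gave Reg3b a log2 fold change of 5.59 (DESeq2 adjusted p = 0.1075), and of 4.79 without RS10_721.

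Of 17 fibroblast and collagen genes, all 17 had a negative log2 fold change, with a median of -0.21, and 5 were lower at an unadjusted p under 0.05, against 2.84% of all genes. Dpt, dermatopontin, measured 154, 169, 158, 153 and 143 CPM on 2% RPS and 146, 131, 104, 112 and 137 CPM at 5% RPS (-0.30, adjusted p = 0.706). RS10_717 was above 1 mouse on 2% RPS and the other 4 were below all of them. Dcn and Lum, small proteoglycans of the matrix, had -0.35 and -0.40, Pdgfra, a fibroblast receptor, -0.20 and Col6a1 -0.24. Without RS10_721, 2 of the 17 were lower and the median was -0.22. There was 1 without RS10_712, RS10_715, RS10_716 or RS10_719, and there were 9 without RS10_717 or RS10_748. Of 15 smooth muscle genes all 15 were negative, with a median of -0.23, and 2 were lower (2.84% of all genes), Acta2 (-0.32) and Actg2 (-0.32), the smooth muscle actins. Without RS10_721 none was and the median was -0.11. None was without RS10_709, RS10_712 or RS10_718 either, 1 was without RS10_716, RS10_719 or RS10_748, and 3 to 5 were without RS10_715, RS10_717 or RS10_724. Stmn2, a neuronal stathmin, measured 28.4 to 34.1 CPM and 23.8 to 26.6 CPM with no overlap (-0.26). It was the 1 gene of 17 enteric neuron and glia genes under the threshold, where 2.84% of all genes were lower.

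Macrophage genes, 24 of 27 of which had a negative log2 fold change, had a median of -0.22 and 2 lower members (2.84% of all genes). Cd68, a lysosomal macrophage protein, measured 9.85, 10.3, 9.44, 8.51 and 7.65 CPM on 2% RPS and 8.16, 6.73, 6.26, 6.47 and 7.19 CPM at 5% RPS (-0.39, adjusted p = 0.746). The only overlap was RS10_717 above RS10_748, both of which have labels that disagree. Pf4, a platelet and macrophage chemokine, had -0.40 (adjusted p = 0.747), the mannose receptor Mrc1 -0.33 (adjusted p = 0.758) and the scavenger receptor Stab1 -0.27 (adjusted p = 0.758). Without RS10_721 the median was -0.15 and none was under the threshold, as without RS10_709. There was 1 without RS10_719, and there were 4 to 5 without RS10_718, RS10_724 or RS10_748. The summed levels of the macrophage list were 574 to 671 CPM on 2% RPS and 467 to 593 CPM at 5% RPS, with RS10_721 the lowest. Colon epithelium genes summed to 19370 to 21940 CPM on 2% RPS and to 21320 to 26950 CPM on 5% RPS, and their part in the stromal and macrophage values was not tested. Red blood cell genes, among them Hbb-bt and Alas2, had a median of -1.52, set by RS10_715, which had 350 CPM against 13.2 to 52.5 CPM in the other 9 mice. Without RS10_715 their median was 0.43. Lists of T cells, B cells, MHC, immunoglobulin and plasma cells, circadian clock, squamous epithelium, adipocytes and posterior Hox genes had 0 genes under the unadjusted threshold of edgeR in either direction. Of all genes, 3.68% were under it and higher, and 2.84% were under it and lower. Ighg1 measured 4.31 to 40.1 CPM on 2% RPS and 7.68 to 36.0 CPM at 5% RPS. Dbp, a clock output gene that follows the time of day, measured 10.6 to 82.9 CPM and 16.6 to 78.3 CPM.

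**Figure D4:**
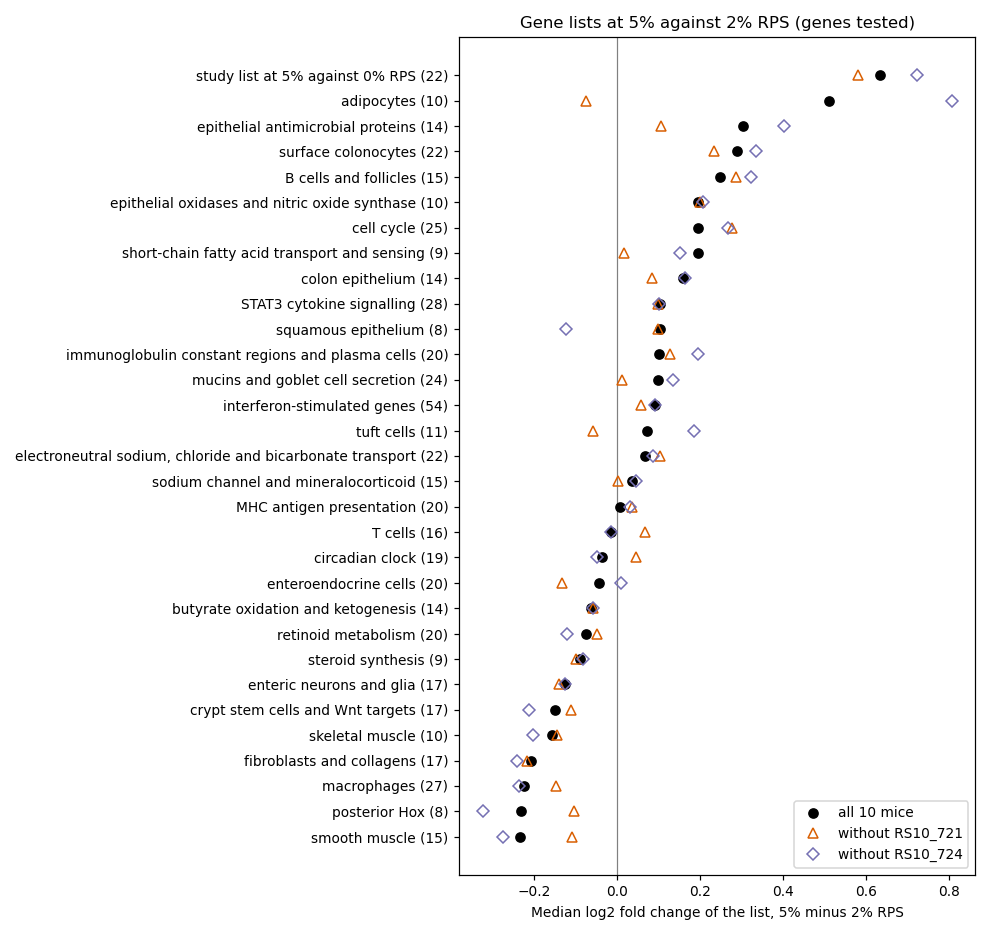
Median log2 fold change of each list of at least 8 tested genes (number in brackets), for all 10 mice, without RS10_721 and without RS10_724. The surface colonocyte list lay between 0.23 and 0.34 and the fibroblast list between -0.24 and -0.21, whereas the smooth muscle list moved from -0.23 to -0.11 without RS10_721. Pancreatic acinar genes (4.03, and -0.06 without RS10_721) and lists of fewer genes are not drawn.

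The neighbouring steps, from 0 to 2% RPS and from 5 to 10% RPS, share mice with this one, so their values are given side by side only. Slc9a3 had log2 fold changes of 0.70 from 0 to 2% RPS, 2.54 from 2 to 5% and 0.24 from 5 to 10%. Slc13a2 had 0.12, 0.77 and 0.04, and Rdh9 had 0.18, 1.21 and 0.30. Bhlha15 had -0.15, 1.34 and -0.97, Trim15 0.39, 1.60 and -1.0, and Cyp2c55 -0.43, -0.80 and 0.77, so the last step of these 3 genes had the opposite sign to the one before. Scnn1g had -0.57, -0.82 and -0.70, and Cyp11a1, the first enzyme of steroid synthesis, -1.05, -1.09 and -1.55. Hsd3b3, which acts later in that pathway, had -0.10, 0.60 and 0.38. edgeR called 0 genes at each of the 3 steps, with 253, 1168 and 1041 genes at an unadjusted p under 0.05.

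A list of genes from the study's comparison of 5% against 0% RPS was read here too. The 5% RPS mice entered that choice as well, so neither its counts nor its direction here are independent evidence. Of 22 tested genes, 12 were higher and 5 lower at an unadjusted p under 0.05 (3.68% and 2.84% of all genes), with a median log2 fold change of 0.63. Under the treatment label 5 were higher and 4 lower, with a median of 0.32. Xpnpep2, an aminopeptidase on this list, was lower in every 5% mouse, at 2.34 to 3.84 CPM against 4.11 to 5.61 CPM (log2 fold change -0.52, adjusted p = 0.706). Tuft (11 tested) and enteroendocrine (20 tested) lists each had 1 higher member, against 3.68% of all genes. They were Gpr160, given above, and the gut hormone Pyy (0.28, adjusted p = 0.747), and the tuft list also had 1 lower, the cyclooxygenase Ptgs1 (-0.24, adjusted p = 0.758). Cpn2, the regulatory chain of carboxypeptidase N, was separate only without RS10_721, at 4.60 to 9.13 CPM against 1.48 to 4.41 CPM (1.07, adjusted p = 0.974). RS10_721 had 1.01 CPM of it.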

How the data were processed

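The authors made stranded polyadenylated RNA libraries, removed low-quality bases, mapped the single-end reads to GRCm39 in CLC Genomics Workbench and deposited raw counts per gene, not normalised or pooled. The annotation release and how multi-mapping reads were handled are not given in the sources used here, so counts of gene families are uncertain. Of 26619 identifiers, 26338 were found in GENCODE vM39, and 281 kept their identifiers.

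Counts were analysed in R 4.3.3. edgeR 4.0.16 filtered genes with filterByExpr (minimum count 10), which kept 17893 of 26004 genes with a count, scaled libraries by TMM and fitted all 4 diets (20 mice) together with glmQLFit and glmQLFTest, and adjusted by Benjamini-Hochberg over the genes tested. A call needed an adjusted p of at most 0.05 and at least a 1.5-fold difference, as in the study. CPM are TMM scaled. DESeq2 1.42.0 and limma 3.58.1 (voom) were alternatives, with RLE scaling, library sizes without immunoglobulin genes, other count minimums, 10 mice only, the treatment label, omission of mice and a clock gene covariate. Both count tests were tested on simulated counts.

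Named genes were every called gene, the 8 largest rises and 8 largest falls among genes of at least 1 CPM with an unadjusted p under 0.05 and no overlap between groups (4 and 4 without RS10_721), a fixed set, and the member of lowest p in each direction of each list. The main text of the study discusses some genes of the fixed set, such as Slc9a3 and Retnlb, but not others, such as Pnlip, Dbp and Mrc1. One of the 8 rises has no symbol and is not described, and some list members are not reported here. Other list members, and the genes that DESeq2 called without RS10_724, were named after their values were seen. Members and lists were chosen with earlier results of these data known. Every mouse has its own number, and no label pairs the diets. Within a diet, any 2 mice differed beyond sampling noise (chi-square per degree of freedom 9.10 to 62.9). Upstream windows were taken from a RefSeq table on GRCm38.p6, another build than that of the gene positions (GRCm39). Counts of reads are not counts of molecules, and the floor of 3 counts lay between 0.0972 and 0.134 CPM in the 10 mice.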

Additional observations from a re-analysis of the deposited data

Results flagged for a closer look

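A mouse stood far from the other 4 of its diet in 23 of 186 groups of values, by the gap to its nearest neighbour over the range of the group. The rule passes about 1 in 20 groups by chance when genes are picked blindly. These were mostly named genes, many picked for their values and some led by the same mouse, such as Hbb-bt and Alas2. The 23 can therefore not be read against that rate. At 5% RPS, RS10_721 was highest in Pnlip (1110 CPM, next 0.474), Ang4 (98.7, next 13.4), Retnlb (23.4, next 1.92), Aqp4 (370, next 137), Cdx2 (84.6, next 33.1), Muc3a (193, next 113) and Homer2 (28.1, next 16.4). RS10_719 was highest in Nos2 (22.9, next 4.06) and Ighg1 (36.0, next 11.1) and lowest in Cyp2c55 (17.3, next 31.2). RS10_724 was highest in Il31ra (47.9, next 11.6) and had the lowest total count (22.3 megacounts, next 28.7).

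At 2% RPS, RS10_715 was highest in Hbb-bt (48.2 CPM, next 3.66), Alas2 (15.4, next 0.844), Pnlip (2.66, next 0.166), Aqp4 (128, next 64.7), Cdx2 (26.4, next 17.3) and Pla2g2a (1.51, next 0.523), and lowest in Scnn1b (16.4, next 27.2). RS10_748 was highest in Mrc1 (21.6, next 17.9) and lowest in Col6a1 (202, next 270.0), RS10_709 was lowest in Plac8 (595, next 789) and RS10_712 was highest in Nos2 (3.38, next 1.62). Mice RS10_715 and RS10_721, each far from the others in 7 groups of values, both stood out in Pnlip, Aqp4 and Cdx2.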

How the results depend on the processing

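The number of genes that edgeR called was 0 under every alternative listed, and limma-voom called 0 as well, whereas DESeq2 called 1. Leaving out each mouse gave 0 to 0 calls by edgeR and 0 to 27 by DESeq2, with 27 without RS10_724, 8 without RS10_748, 4 without RS10_712, 4 without RS10_718, 2 without RS10_715, 2 without RS10_721 and 0 without RS10_717. The DESeq2 analyses without a mouse, the fit to 9 mice and the table without acinar genes were chosen after seeing the data. Genes at an unadjusted p under 0.05 numbered 758 under the treatment label, 688 without RS10_721 and the 3 mice whose labels disagree, and 849 to 1608 with a mouse left out. The genes whose 5% and 2% RPS mice do not overlap, 171 in all, numbered 662 without those 3 mice, 1054 without RS10_721 too, 261 in the fit to 9 mice and 233 to 587 with a mouse left out, as smaller groups overlap less easily. The difference in total count per mouse at 5% against 2% RPS, 0.410 megacounts, was -0.430 to 1.90 megacounts with a mouse left out, and turned without RS10_709 (-0.430), RS10_717 (-0.110) and RS10_718 (-0.0695).

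Of 92 named genes, 86 kept the sign of their log2 fold change under all alternatives. The exceptions were Pnlip (-2.08 without RS10_721 and the 3 mice), Ighg1 (0.060 with the clock covariate), Dbp (-0.037 under the treatment label) and Iigp1 (0.077 under the treatment label). With a mouse left out, Pnlip gave -2.19 (without RS10_721) to 11.54, and RS10_715 gave the upper end for Ighg1 (-1.07 to 0.10), Hbb-bt (-2.10 to 0.39) and the log2 fold change of Alas2 (-2.17 to 0.59) and the lower end for Dbp (-0.04 to 0.55). Except for Pnlip, where RS10_721 holds nearly all counts, and the red cell genes, which RS10_715 leads, the cause was not tested. No paired analysis was possible because mouse numbers are unique to an animal. With 5 mice a side, differences of the size seen in Abcg2 or Dpt could not be told from the spread after adjustment.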
